A study of Mus musculus with 4 samples.

Results

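The 10 genes described here handle iron and haem. Hmox1 breaks down haem, and Blvrb reduces flavins and the beta form of biliverdin. Slc40a1 exports iron, Fth1 and Ftl1 store it, and Ncoa4 releases it from store. Tfrc, Trf, Slc11a1 and Slc11a2 bring iron in or move it across membranes. The 10 genes were chosen as a named set, with earlier results of these data known. All 10 were found by symbol among the 32286 features of the table, each on 1 row. They were measured in interstitial cells of mouse hearts, which are the cells left when cardiomyocytes are strained out, 1 month after stroke in 2 samples and 1 month after a control condition in 2 samples. All animals carried Ccr2creERT2-Ai14, an inducible Cre recombinase driven from the Ccr2 gene together with a tdTomato reporter that Cre switches on, so the reporter can mark cells that used Ccr2 when Cre was induced, and no animals without these alleles were among the samples. The joined table holds 4 libraries, told apart by a barcode suffix that no label ties to a sample, so stroke and control hearts were not compared. Values are instead given by cell type, over all libraries and, for the main results, for each library.

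Macrophages are the body's main recyclers of iron. They take up haem and old red cells, haem oxygenase opens the haem ring, biliverdin reductase turns the product into bilirubin, and the freed iron is either packed into ferritin shells or sent back to plasma through ferroportin, the only known iron exporter of mammalian cells. Much of this handling is set after transcription: iron regulatory proteins bind hairpins called iron-responsive elements, which block translation when they lie in a 5′ UTR and protect the message from decay when they lie in a 3′ UTR. The levels below are of messages, and those of the genes that carry such hairpins need not follow protein.

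The hairpin was sought in GENCODE vM21 transcripts (GRCm38) as a C, a stem of 5 bases, the loop CAGTGN and 5 bases that pair with the stem, G to T pairs allowed, on the transcript strand. It was found in 4 of the 10 genes. The sites are printed because, among these 4, they separate genes with a match in the 5′ UTR from the gene with matches in the 3′ UTR. Capitals mark the loop and 6 bases are shown on each side of the match.
Fth1, 5′ UTR, chr19:9982732-9982760, plus strand: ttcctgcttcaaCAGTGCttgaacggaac
Ftl1, 5′ UTR, chr7:45459779-45459807, minus strand: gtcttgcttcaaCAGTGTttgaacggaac
Slc40a1, 5′ UTR, chr1:45925465-45925493, minus strand: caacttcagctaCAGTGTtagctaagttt
Tfrc, 3′ UTR, chr16:32631219-32631247, plus strand: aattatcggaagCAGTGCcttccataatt
Tfrc, 3′ UTR, chr16:32631598-32631626, plus strand: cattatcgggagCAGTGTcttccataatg
Tfrc, 3′ UTR, chr16:32631663-32631691, plus strand: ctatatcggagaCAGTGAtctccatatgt
Tfrc, 3′ UTR, chr16:32631710-32631738, plus strand: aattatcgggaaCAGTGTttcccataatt
The same pattern lay in the 5′ UTR of 31 of 20899 protein-coding genes with one (0.148%) and in the 3′ UTR of 129 of 21022 (0.614%). The ferritin hairpins share their stem letters, the ferroportin hairpin has another stem around the same loop, and Tfrc held 4 matches within a single exon. A match describes letters only, and a hairpin with a bulge or another loop would not be found by this search. A gene without a match, such as Slc11a2, may therefore still carry an iron-responsive element.

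Of 39731 barcodes, 37594 were analysed, 8625 to 10031 in each library, with a median of 2583 to 3487 UMIs (unique molecular identifiers, 1 per captured RNA molecule) per cell. They fell into 18 classes of at least 50 cells, named from markers with the 10 genes and the other iron genes kept out of the clustering, while 1173 cells stayed unnamed. The class called macrophage-like held 1194 cells, 143, 270, 634 and 147 in libraries 1 to 4, so library 3 weighs most in it, and its leading genes were C1qa, C1qb and C1qc. The libraries share 161 barcode sequences, and shared sequences were counted as separate cells. Levels are CPM, the summed UMIs of the gene over all UMIs of the class on the usual CPM scale, and intervals are exact Poisson or conditional binomial 95% intervals that cover counting error only. Cells are not replicates and no sample could be tied to a cell, so no test was made, and the spread over the 4 libraries stands in its place.

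**Figure D1:**
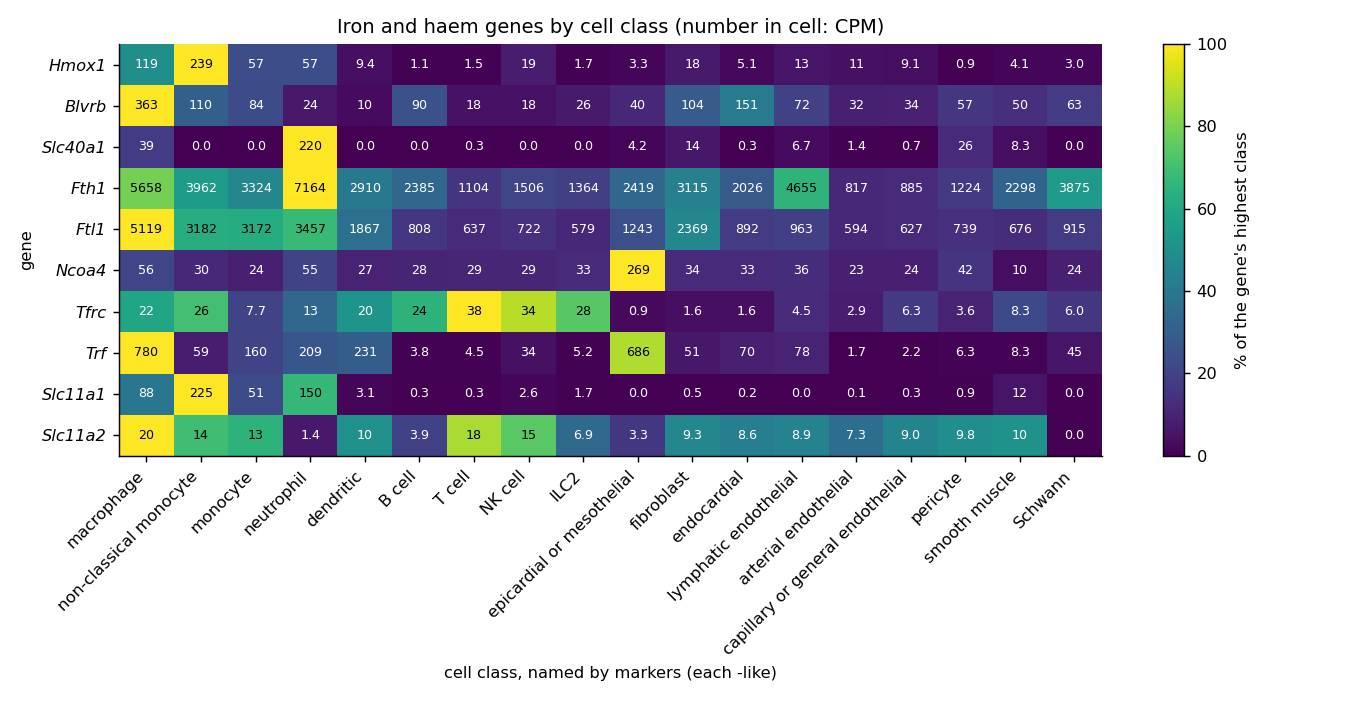
Summed level of each of the 10 genes (rows) in 18 marker-defined cell classes (columns). The number in a cell is CPM and the colour is that CPM as a percentage of the gene's highest class. Blvrb, Ftl1, Trf and Slc11a2 were highest in macrophage-like cells, Hmox1 and Slc11a1 in non-classical monocyte-like cells, Slc40a1 and Fth1 in neutrophil-like cells, Ncoa4 in epicardial or mesothelial-like cells and Tfrc in T cell-like cells.

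The set as a whole leaned to macrophages. It was chosen with earlier results of these data known, so its counts beside those of all genes are a description. Blvrb, Ftl1, Trf and Slc11a2 peaked in macrophage-like cells and the other 6 of its 10 genes in another class. Of the 11772 features at 20 CPM or more in a class, 3.43% peaked in macrophage-like cells. The top class overlapped the next in library range for Fth1, Tfrc, Trf, Slc11a1 and Slc11a2. Against all other cells, 9 of the 10 genes stood at least 2-fold higher in macrophage-like cells, where 12.9% of 8080 genes at 20 CPM or more on either side did so, and none was 2-fold lower, against 20.7% of genes. The median log2 ratio was 2.0 for the 10 genes and -0.22 for all genes tested. The excess was greatest for Trf, at 780 CPM in macrophage-like cells and 49.8 CPM in all other cells (15.7-fold, interval 15.1 to 16.2), and for Slc11a1, at 88.2 CPM in macrophage-like cells and 6.02 CPM in other cells (14.7-fold, 13.2 to 16.27). Ncoa4 was the exception, at 56.1 CPM against 33.6 CPM (1.67-fold, 1.5 to 1.85), and higher in macrophage-like cells in 3 of 4 libraries, whereas the other 9 genes were higher there in 4 of 4. Without library 3 the ratio of Slc40a1 was 1.87 and that of Ncoa4 1.05, and the count of genes at 2-fold lay between 7 and 9 as each library was left out in turn.

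Hmox1, at chr8:75093621-75100589 in GRCm38, encodes haem oxygenase 1, the inducible enzyme that opens the haem ring to give biliverdin, carbon monoxide and iron. By class it was highest not in macrophage-like but in non-classical monocyte-like cells, the blood monocytes that patrol vessel walls. There it stood at 347, 271, 142 and 196 CPM in libraries 1 to 4, against 130, 103, 131 and 96.6 CPM in macrophage-like cells. Every library of the monocyte class lay above every library of the macrophage class, by the narrowest margin in library 3. The macrophage class pools unlike subtypes, and resident macrophages, described below, held 205, 199, 205 and 164 CPM. These overlap the monocyte libraries and stand above them in library 3. Pooled, the levels were 239 CPM (218 to 261) in non-classical monocyte-like cells and 119 CPM (111 to 127) in macrophage-like cells, a ratio of 2.01 (1.80 to 2.26) that ran from 1.64 without library 2 to 2.53 without library 3. The UMIs were spread unevenly over the monocytes, since 131 of 410 cells held all 480 of them and 1 cell held 40.

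Neutrophil-like cells at 57.2 CPM and monocyte-like cells at 56.6 CPM came next and had overlapping intervals. In the monocyte-like class 1 cell held 19 of the 74 UMIs, and the level without it was 42.6 CPM. Fibroblast-like cells stood at 17.5 CPM, with 15.5 to 19.9 CPM over the libraries, and B and T cell-like cells at 1.15 and 1.52 CPM. NK cell-like cells read 18.5 CPM, but 1 cell held 20 of their 21 UMIs and the level without it was 0.898 CPM. A UMI of Hmox1 was seen in 32.0% of non-classical monocyte-like cells (median 4893 UMIs), 37.0% of macrophage-like cells (median 5450 UMIs) and 0.458% of B cell-like cells (median 4009 UMIs). The first pair runs against the order in CPM, so no order is read from it. Thinned to 1000 UMIs per cell, the shares were 11.2% of the monocytes and 8.71% of the macrophages.

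Blvrb, at chr7:27447978-27466144, encodes biliverdin reductase B, which reduces flavins and the beta form of biliverdin. Its levels in macrophage-like cells were 331, 342, 381 and 365 CPM in libraries 1 to 4, against 139, 138, 136 and 172 CPM in endocardial-like cells, the next class. The libraries of both classes were tight and lay well apart, and the ratio was 2.39 (2.26 to 2.54). Non-classical monocyte-like cells stood at 110 CPM and neutrophil-like cells at 24.4 CPM, both well below the macrophage level. Dendritic-like cells were lowest, at 10.1 CPM. The orders of Hmox1 and Blvrb over the 18 classes were unlike, with a Pearson r of 0.46, given as a description.

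**Figure D2:**
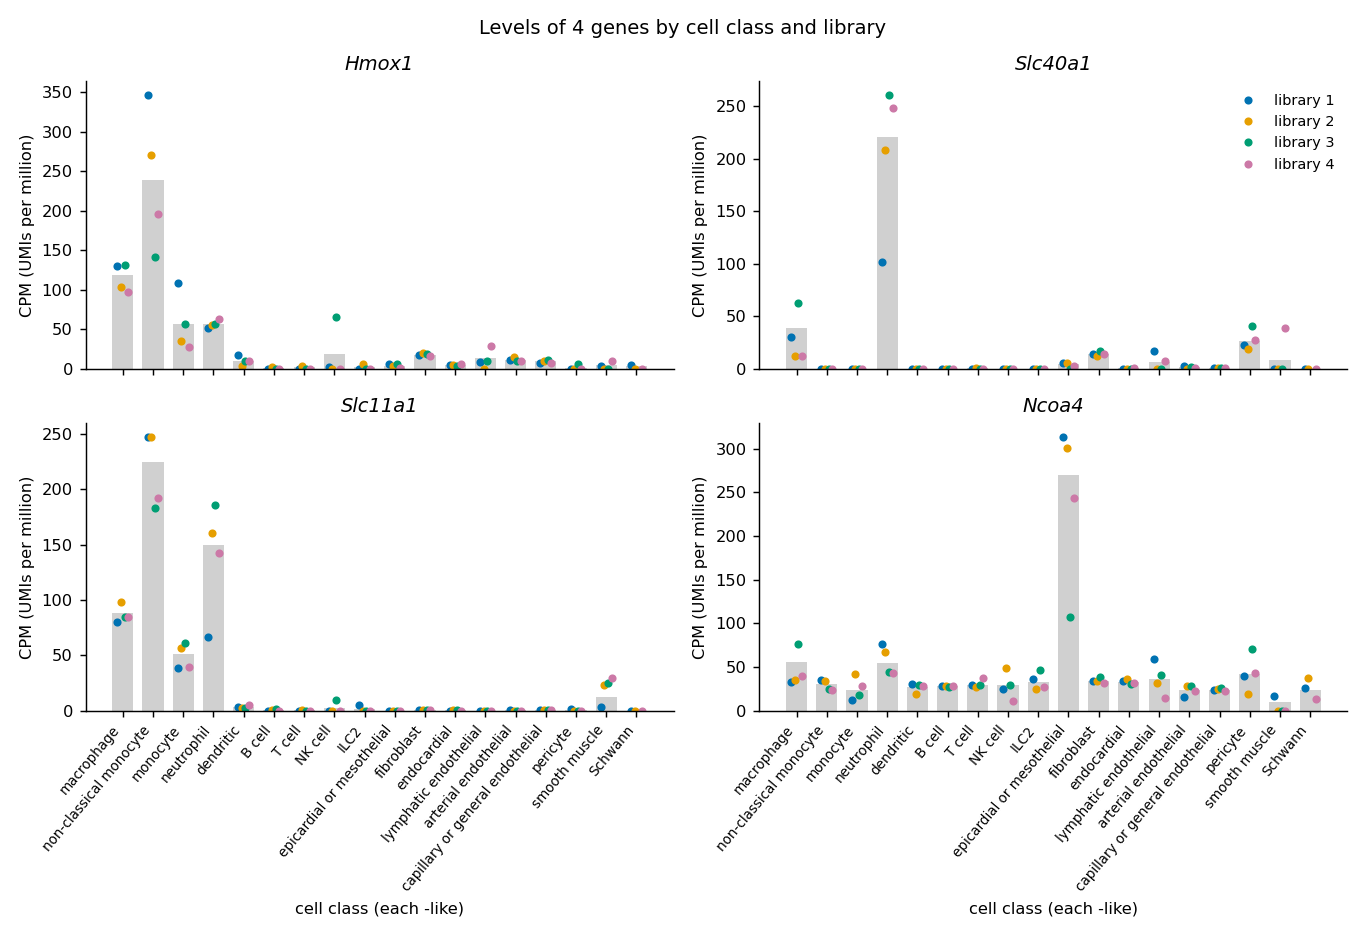
Level of Hmox1, Slc40a1, Slc11a1 and Ncoa4 in 18 cell classes, with the bar at the CPM over all libraries and a point for each library with at least 10 cells of the class. Slc40a1 in neutrophil-like cells runs from 102 to 261 CPM, above the 11.8 to 62.8 CPM of macrophage-like cells, and Ncoa4 in epicardial or mesothelial-like cells runs from 107 to 313 CPM, above every library of the other classes.

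Slc40a1, at chr1:45908068-45926523, encodes ferroportin, through which iron leaves the cell. Its message was highest in neutrophil-like cells, at 102, 208, 261 and 248 CPM in libraries 1 to 4, against 30.3, 12.1, 62.8 and 11.8 CPM in macrophage-like cells. No library of the neutrophils came as low as any of the macrophage class, and in the macrophages libraries 1 and 3 stood above libraries 2 and 4. The macrophage class pools unlike subtypes, and resident macrophages, described below, held 86.2, 48.0, 111 and 50.5 CPM (91.1 CPM pooled). Their library 3 stood above library 1 of the neutrophils, though within each library the neutrophils were higher. The pooled levels were 220 CPM (197 to 246) in neutrophil-like cells and 38.9 CPM (34.4 to 43.7) in macrophage-like cells, a ratio of 5.67 (4.81 to 6.69). Without library 3 the ratio was 12.96, and without library 2 it was 4.54.

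In neutrophil-like cells the message was spread over many cells, with 186 of 434 holding a UMI and no cell holding more than 7. Macrophage-like cells had it in 109 of 1194 cells, and 1 of these held 32 of the 278 UMIs. A UMI was seen in 42.9% of neutrophil-like cells (median 2994 UMIs) and in 9.13% of macrophage-like cells (median 5450 UMIs), while 0 of 1530 B cell-like cells (median 4009 UMIs) had one, where 3 UMIs would give 0.382 CPM. It was also at 0 UMIs in non-classical monocyte-like, monocyte-like, dendritic-like, NK cell-like, ILC2-like and Schwann-like cells. In these classes 3 UMIs would give from 1.49 CPM (non-classical monocyte-like) to 8.97 CPM (Schwann-like). For ILC2-like (5.20 CPM) and Schwann-like cells that limit is above the 4.24 CPM of epicardial or mesothelial-like cells, so their zeros do not show a lower level. Outside the white cells, pericyte-like cells stood at 25.9 CPM and fibroblast-like cells at 13.96 CPM, with 12.3 to 16.9 CPM over the libraries. The 8 macrophage markers summed to 241 CPM in neutrophil-like cells, 61.1 to 560 CPM over the libraries, and to 15456 CPM in macrophage-like cells, with none of the 8 at 0 in either class.

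Fth1, at chr19:9980598-9985098, and Ftl1, at chr7:45457944-45459884, encode the heavy and light chains that build the ferritin shell, the heavy chain carrying the activity that oxidises iron. They held 0.239% and 0.167% of all UMIs. Fth1 stood at 5146, 6429, 8308 and 7715 CPM in the neutrophil-like cells of libraries 1 to 4, against 5367, 4829, 6252 and 5461 CPM in macrophage-like cells. The ranges overlap, and library 1 had the order reversed. Ftl1 was instead higher in macrophages, at 5167, 4904, 5196 and 5283 CPM in macrophage-like cells, against 1990, 3263, 4044 and 3761 CPM in neutrophil-like cells, with no overlap. The pooled ratio of macrophage-like to neutrophil-like cells was 1.48 (1.44 to 1.53), and it turned to 0.992 under edgeR's TMM factors and 0.746 under DESeq2's size factors. The scaling sets the sign of this difference, since relative to plain CPM those factors raise every gene of the neutrophils over the macrophages by 0.58 and 0.99 on the log2 scale.

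The ratio of the ferritin messages to each other does not depend on such scaling, and is read here only between classes. For each Ftl1 UMI there were 1.11 Fth1 UMIs (1.09 to 1.12) in macrophage-like cells, with 1.04, 0.985, 1.20 and 1.03 in libraries 1 to 4. Monocyte-like cells stood at 1.05 and non-classical monocyte-like cells at 1.24, with library ranges that overlap those of the macrophages. Neutrophil-like cells held 2.07 Fth1 UMIs per Ftl1 UMI (2.003 to 2.14), from 1.97 to 2.59 over the libraries and so above every library of these 3 classes. The ratio was highest in lymphatic endothelial-like cells, at 4.83 (4.35 to 5.37) with a library range of 4.08 to 5.81, followed by Schwann-like cells at 4.24 (3.74 to 4.81). In lymphatic endothelial-like cells Fth1 was at 4655 CPM and Ftl1 at 963 CPM. The pseudogene Ftl1-ps1 held 816 UMIs where Ftl1 held 245459, and how reads were shared out between them is not stated in the labels.

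**Figure D3:**
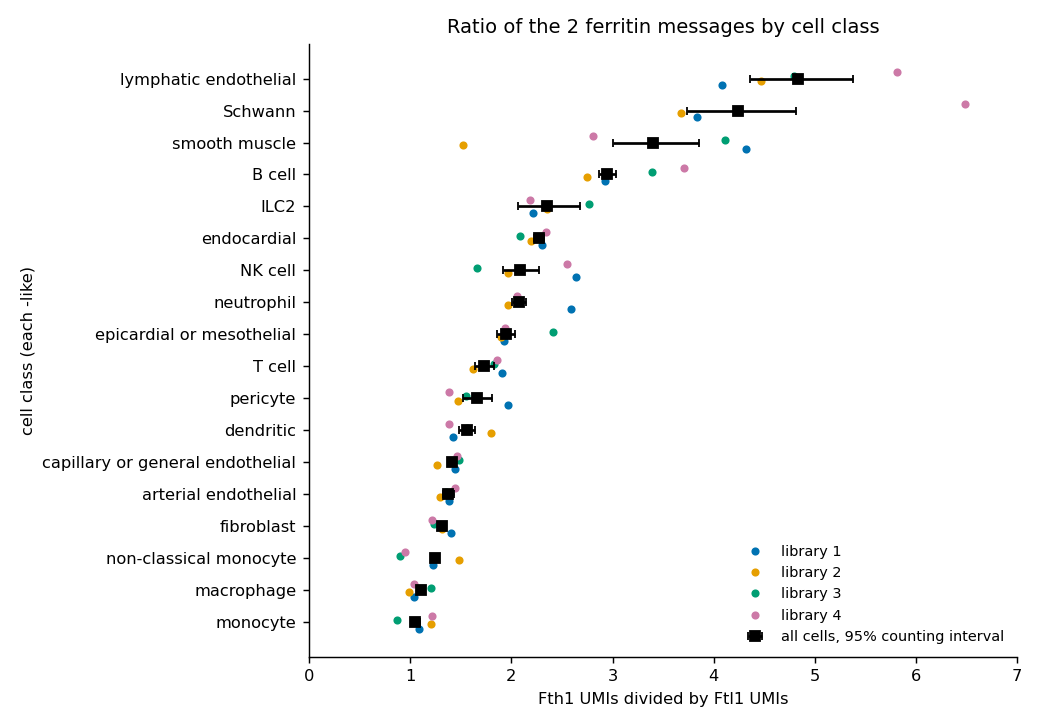
Fth1 UMIs divided by Ftl1 UMIs in each cell class, with the 95% counting interval of all cells (squares) and each library with at least 10 cells (points). The monocyte-like and macrophage-like classes lie lowest, at 1.05 and 1.11, and lymphatic endothelial-like cells lie highest, at 4.83.

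Ncoa4, at chr14:32159865-32179855, encodes the receptor that carries ferritin to the lysosome so that its iron can be used. It was even across most classes, with a class median of 29.9 CPM, and stood out in epicardial or mesothelial-like cells, the sheet that covers the heart. Those cells held 313, 300, 107 and 243 CPM in libraries 1 to 4, against 33.1, 35.4, 76.7 and 40.1 CPM in macrophage-like cells. Library 3 was the lowest for the epicardial class, on 27 cells, and the highest for the macrophages, and the ranges still did not overlap. The ratio was 4.80 (4.22 to 5.47) and 7.86 without library 3. The macrophage markers summed to 12.2 CPM in the epicardial class, with 3 of the 8 at 0.

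Trf, at chr9:103204001-103230444, encodes transferrin, the plasma carrier of iron, which is made mostly by the liver. It shared its high places with Ncoa4 in part, since epicardial or mesothelial-like cells were close behind macrophages. Macrophage-like cells held 558, 995, 653 and 974 CPM in libraries 1 to 4, against 649, 710, 506 and 733 CPM in epicardial or mesothelial-like cells. The ranges overlap, and libraries 2 and 4 were the high ones among the macrophages. Pooled, the levels were 780 and 686 CPM, a ratio of 1.14 (1.07 to 1.21). Libraries 2 and 4 also held 116 of the 118 serous-cavity-type macrophages described below, and without those cells the ratio was 0.896, so the order of these classes was reversed. Dendritic-like cells at 231 CPM and neutrophil-like cells at 209 CPM followed, while capillary or general endothelial-like cells had 2.20 CPM.

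Tfrc, at chr16:32608920-32632794, encodes transferrin receptor 1, which takes in iron-loaded transferrin and is high in dividing and in red cell precursor cells. Among the 18 classes it was highest in lymphoid ones. T cell-like cells held 42.8, 34.3, 30.9 and 51.3 CPM by library, and NK cell-like cells 39.3, 20.1, 46.2 and 17.2 CPM. These overlap, and no pair of neighbours in the order of 18 classes was apart in its library ranges. Macrophage-like cells at 22.1 CPM (18.8 to 25.8) ranked 6 of 18, but they pool unlike subtypes, described below. Resident macrophages held 48.5, 62.8, 56.8 and 63.2 CPM by library, above T cell-like cells in each, while MHC-II-high macrophages held 8.46 CPM. Fibroblast-like and epicardial or mesothelial-like cells were near the bottom at 1.58 and 0.942 CPM. Epicardial or mesothelial-like cells thus combined a high level of the ligand Trf with 2 UMIs of its receptor in 311 cells.

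Slc11a1, at chr1:74375195-74386062, encodes NRAMP1, which pumps iron and manganese out of the phagosome, and stood at 12.4 CPM or less outside 4 myeloid classes. It stood at 247, 247, 183 and 192 CPM in the non-classical monocyte-like cells of libraries 1 to 4, against 66.2, 160, 186 and 142 CPM in neutrophil-like cells. The ranges overlap only through library 3, and library 1 of the neutrophils was far below the others. Macrophage-like cells were even, at 80.0, 98.5, 84.7 and 84.8 CPM, and monocyte-like cells had 51.3 CPM. Smooth muscle-like cells, at 12.4 CPM on 6 UMIs, were the next class, and dendritic-like cells had 3.12 CPM. The ratio of non-classical monocyte-like to neutrophil-like cells was 1.5 (1.27 to 1.77), and 0.798 under DESeq2's size factors.

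Slc11a2, at chr15:100387898-100425072, encodes DMT1, which moves iron out of the endosome after transferrin is taken up. It was low throughout, at 20.1 CPM (17.0 to 23.7) in macrophage-like cells and 17.6 CPM (13.4 to 22.7) in T cell-like cells, with overlapping libraries. Neutrophil-like cells were the low end among white cells, with 2 UMIs in 434 cells (1.39 CPM). No neighbouring classes were apart in library range for this gene.

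Set against macrophages directly, the counts for the 10 genes lay at or below the background. Neutrophil-like cells had 1 of the 10 genes at 2-fold or more above macrophage-like cells, Slc40a1, where 16.1% of 6989 genes did so. In the other direction 4 genes were 2-fold or more lower, against 44% of genes, so neither count exceeds the background. These were Blvrb at 24.4 CPM in neutrophil-like and 363 CPM in macrophage-like cells (ratio 0.0673), Slc11a2 at 1.39 and 20.1 CPM (0.0693), Trf at 209 and 780 CPM (0.268) and Hmox1 at 57.2 and 119 CPM (0.482). The median log2 ratio was -0.69 for the 10 genes and -0.73 for all genes tested. Under DESeq2's size factors the split was 3 higher and 2 lower, with Hmox1 at 0.956 and Fth1 at 2.51, and without library 3 it was 1 higher and 2 lower. Haemoglobin UMIs were concentrated in single cells of both classes, 2762 of 2816 in 1 neutrophil-like cell, and their part in these ratios was not tested.

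Within the macrophages, 4 sub-clusters were named from markers that include none of the 10 genes, and each name stands for cells that resemble that type. Resident macrophages (217 cells, led by Lyve1, F13a1 and Folr2), MHC-II-high macrophages (341 cells, led by H2-Eb1 and H2-Aa), lipid-associated macrophages (126 cells, led by Spp1 and Fabp5) and serous-cavity-type macrophages (118 cells, led by Slpi, Saa3 and Prg4) were compared. The remaining 392 macrophage-like cells lay in 3 unnamed sub-clusters of 261, 96 and 35 cells, led by Cd207 and Ccl4, by the endothelial genes Kdr and Flt1, and by the cell cycle genes Top2a and Mki67.

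Resident macrophages had more message for haem breakdown, iron export and transferrin uptake than MHC-II-high macrophages. Of the 9 genes at 20 CPM or more on either side, Tfrc, Slc40a1 and Hmox1 were 2-fold or more higher and none was 2-fold lower, where 4.26% of 6709 genes were higher and 2.65% lower. The median log2 ratio was 0.67 for the 9 genes and 0.09 for all genes tested. Hmox1 stood at 205, 199, 205 and 164 CPM in resident macrophages of libraries 1 to 4, against 99.1, 103, 98.0 and 82.4 CPM in MHC-II-high macrophages. The groups do not overlap and the gap is nearly the same in each library. The ratio was 2.07 (1.68 to 2.56) and lay between 1.61, with doublets kept, and 2.75, at the higher clustering resolution. In the MHC-II-high cells 1 cell held 35 of the 138 UMIs, and their level without it was 73.0 CPM.

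Slc40a1 stood at 86.2, 48.0, 111 and 50.5 CPM in resident macrophages of libraries 1 to 4, against 15.2, 9.39, 40.9 and 0 CPM in MHC-II-high macrophages. The groups do not overlap, and libraries 1 and 3 were the high ones in both. Here too the message sat in few cells, 44 of 217 resident macrophages, of which 1 held 32 of 121 UMIs, and the resident level without that cell was 67.6 CPM. The ratio was 3.08 (2.15 to 4.48), with 7.54 without library 3, 1.94 with doublets kept and 1.76 at the higher clustering resolution. Tfrc stood at 48.5, 62.8, 56.8 and 63.2 CPM in resident macrophages, against 22.9, 4.70, 8.62 and 0 CPM in MHC-II-high macrophages. Again the groups did not overlap. The ratio was 6.77 (3.66 to 13.7), on 76 and 12 UMIs, and 4.27 under stricter cell filters. It was the greatest of the 10 between these sub-clusters, but its size and rank depended on how the cells were divided. With cells assigned one by one to the subtype whose markers they held most, Tfrc was at 42.3 CPM in resident and 14.6 CPM in MHC-II-high cells. Slc40a1 was then at 80.7 and 13.7 CPM, a greater gap than that of Tfrc.

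Fth1 did not share in this difference, at 6093 CPM in resident and 6134 CPM in MHC-II-high macrophages (ratio 0.993, 0.964 to 1.02), and Ftl1 was at 5557 and 4477 CPM (1.24, 1.2 to 1.28), or 0.969 with doublets kept. Ncoa4 was at 91.9 CPM in resident and 47.2 CPM in MHC-II-high macrophages (1.95, 1.43 to 2.66), though at 37.9 and 54.9 CPM in library 4, and its ratio was 1.27 without library 3. Blvrb was at 507 CPM in resident and 319 CPM in MHC-II-high macrophages (1.59, 1.41 to 1.80) and higher in resident cells in 4 of 4 libraries. The median UMIs per cell were 6085 in resident and 4034 in MHC-II-high cells, and early response genes summed to 4205 and 3492 CPM. Haemoglobin genes summed to 60.3 CPM in resident and 7309 CPM in MHC-II-high macrophages, where 1 cell held 6615 of 10367 such UMIs. The part of these in the ratios was not tested, and thinning all cells to 1000 UMIs left all 3 genes above 2-fold except Hmox1, at 1.99.

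**Figure D4:**
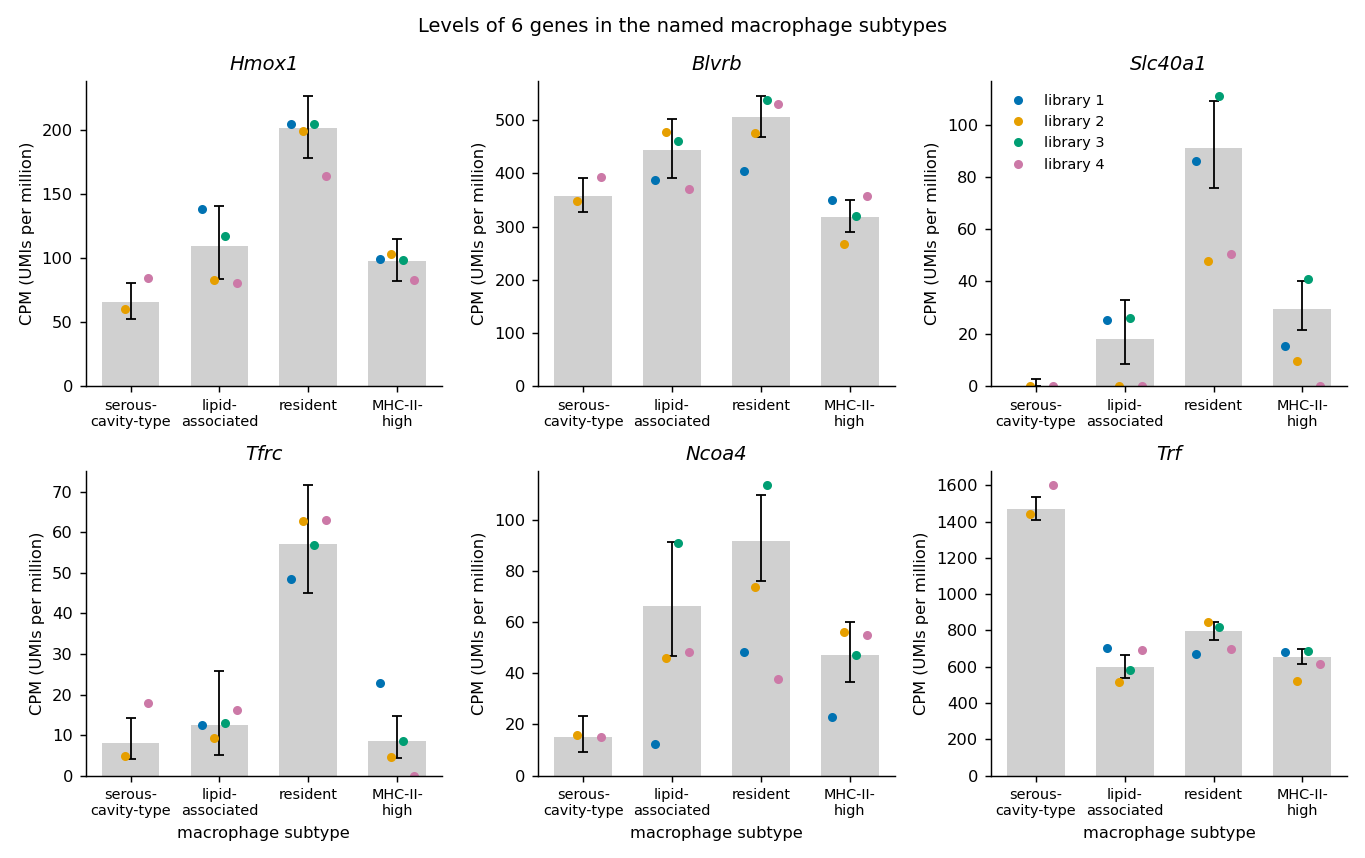
Level of 6 genes in 4 macrophage subtypes, with the bar and its 95% counting interval over all cells and a point for each library with at least 10 cells of the subtype. Hmox1, Slc40a1 and Tfrc are highest in resident macrophages, Slc40a1 is at 0 in serous-cavity-type macrophages, and Trf is highest in those cells at 1471 CPM.

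Serous-cavity-type macrophages express the markers of macrophages that live in body cavities, with Gata6, their defining factor, at 85.6 CPM, against 2.26 CPM in resident macrophages. Their cells came from libraries 2 and 4 (81 and 35), with 0 and 2 in libraries 1 and 3, so a library difference and a cell type difference cannot be told apart across the set, and values within those 2 libraries are given beside the pooled ones. Slc40a1 had 0 UMIs in 118 cells, against 121 UMIs in 217 resident macrophages. Within libraries 2 and 4 there were 0 UMIs in 116 serous-cavity-type cells and 17 UMIs in 60 resident cells (48.6 CPM). A limit of 3 UMIs over the group (2.22 CPM) lay 21.9-fold below that resident level, whose own counting error is left out. Over all libraries, where libraries 1 and 3 raise the resident level to 91.1 CPM, a limit of 3 UMIs lay 41.9-fold below it. The conditional interval, which covers counting error in both groups, put the ratio over all libraries at 0.0298 or less. Trf went the other way, at 1442 and 1600 CPM in serous-cavity-type macrophages of libraries 2 and 4, against 849 and 695 CPM in resident macrophages of the same libraries (pooled ratio 1.85, 1.72 to 1.99). The groups do not overlap, and the serous-cavity-type cells are the high ones in both libraries.

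Counted over the 9 genes at 20 CPM or more on either side, 4 were 2-fold or more lower in serous-cavity-type macrophages and none was 2-fold higher, where 23.2% of 6864 genes were lower and 10.3% higher. The 4 were Slc40a1, Tfrc, Ncoa4 and Hmox1. Tfrc stood at 7.98 CPM, against 57.2 CPM in resident macrophages (ratio 0.139, 0.0668 to 0.264). In libraries 2 and 4 Tfrc was at 4.92 and 18.0 CPM in serous-cavity-type macrophages, against 62.8 and 63.2 CPM in resident macrophages. Ncoa4 stood at 15.2 CPM in serous-cavity-type cells, against 91.9 CPM in resident cells (0.166, 0.0991 to 0.265), and in libraries 2 and 4 at 15.7 and 14.99 CPM, against 73.8 and 37.9 CPM. The ratio of Tfrc was 0.297 without library 2 and 0.0842 without library 4, and that of Ncoa4 was 0.26 without library 3. Hmox1 stood at 60.03 and 83.9 CPM in serous-cavity-type macrophages of libraries 2 and 4, against 199 and 164 CPM in resident macrophages of the same libraries (0.325, 0.253 to 0.414). For these 4 genes and Trf the values of both libraries had the pooled direction. Ferritin differed less, with Fth1 at 4219 and 6093 CPM (0.693) and Ftl1 at 4839 and 5557 CPM (0.871) in serous-cavity-type and resident cells. In libraries 2 and 4 Fth1 was at 4212 and 4073 CPM in serous-cavity-type cells, against 6026 and 4915 CPM in resident cells. Ftl1 was at 4835 and 4960 CPM, against 5985 and 4953 CPM, so library 4 had no gap, and its ratio was 1.16 under DESeq2's size factors. Serous-cavity-type cells were deeper, with a median of 11581 UMIs, against 6085 UMIs in resident cells, and early response genes summed to 12381 and 4205 CPM in the same order. Whether depth or the response to handling moves these genes was not tested.

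Lipid-associated macrophages had less Tfrc and Hmox1 message than resident macrophages, and their level of Slc40a1 depended on how the cells were divided. The name rests on the leading genes of the sub-cluster: assigned one by one, 17 of its 126 cells scored as lipid-associated, 60 as resident, 32 as MHC-II-high and 15 as recruited. Slc40a1 stood at 25.1, 0, 26.0 and 0 CPM in lipid-associated macrophages of libraries 1 to 4, against 86.2, 48.0, 111 and 50.5 CPM in resident macrophages. No library overlapped, and 1 cell held 6 of the 10 UMIs of the lipid-associated group. The zeros of libraries 2 and 4 came from 28 and 14 cells, and the resident value of library 4 from 16 cells. Counts this small leave the size of the gap in those libraries uncertain. The ratio was 0.197 (0.0919 to 0.374) and 0.13 without library 3, but it was 0.976 at the higher clustering resolution, where other cells carry the name, and with cells assigned one by one the levels were 65.9 and 80.7 CPM. Tfrc was at 12.5 and 57.2 CPM (0.219, 0.0852 to 0.474, and 0.105 to 0.442 over the alternatives) and Hmox1 at 109 and 201 CPM (0.543, 0.405 to 0.72), both lower in lipid-associated macrophages in 4 of 4 libraries. In all 2 of 9 genes were 2-fold or more lower, Slc40a1 and Tfrc, where 8.1% of 6667 genes were, and none was higher, where 1.86% were. Ftl1 was at 6962 CPM in lipid-associated and 5557 CPM in resident macrophages (1.253), but 1 cell held 641 of the 3886 UMIs and the level without it was 6042 CPM.

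No sub-cluster met the markers of recruited macrophages, and that comparison was made with cells assigned one by one to the subtype whose markers they held most. Of the 10 genes, 3 stood at 2-fold or more higher in the 385 cells called resident than in the 100 cells called recruited, where 3.98% of 7088 genes did, and none was 2-fold lower, where 4.67% were. They were Slc40a1 at 80.7 and 27.0 CPM (ratio 2.99, on 187 and 12 UMIs), Tfrc at 42.3 and 15.8 CPM (2.68) and Blvrb at 485 and 194 CPM (2.504). Hmox1 stood at 190 CPM in resident and 176 CPM in recruited cells (1.08, 0.851 to 1.4), or 2.13-fold higher in resident cells with cells thinned to 1000 UMIs. Without library 3 Blvrb alone was at 2-fold or more, at 2.01, and in thinned cells the ratio of Slc40a1 was 1.32.

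**Figure D5:**
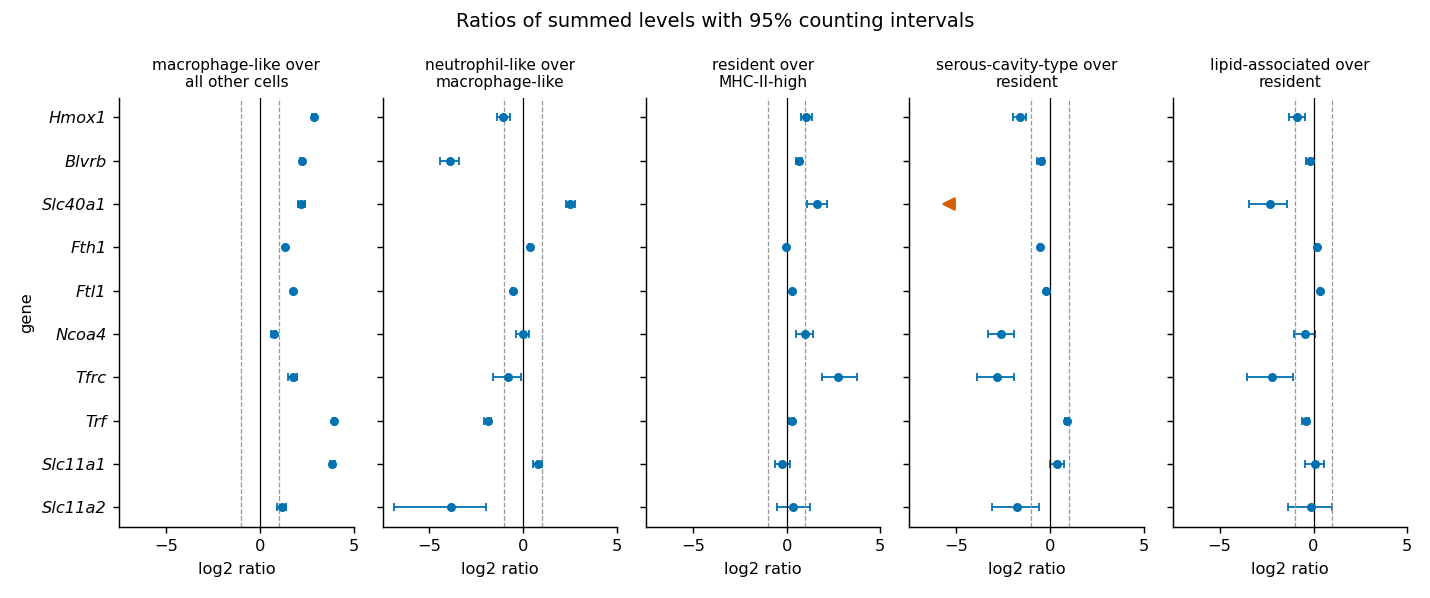
Log2 ratio of summed levels for each gene in 5 comparisons, with 95% counting intervals. Dashed lines mark 2-fold. The arrow head for Slc40a1 in serous-cavity-type over resident macrophages marks a limit of 3 UMIs over all libraries. It lies 41.9-fold below the resident level, or 21.9-fold within libraries 2 and 4, with the counting error of the resident level left out. In the first panel 9 of 10 genes lie right of the 2-fold line.

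Of 78 other iron and haem genes in 7 lists, 62 reached 20 CPM in a class and 3 of these (4.84%) had their peak in macrophage-like cells, near the 3.43% of all 11772 such features. In the list for haem uptake, transport and breakdown, 3 of 10 genes that reached 20 CPM in a class did, and these were Cd163, the scavenger receptor for haemoglobin bound to haptoglobin, Hmox2 and Blvra, the last pair named after their values were seen. In the other 6 lists no gene that reached 20 CPM had its peak there. Cd163 stood at 274 CPM in macrophage-like cells and 34.3 CPM in dendritic-like cells, the next class. Lrp1, the receptor for haem bound to haemopexin, was highest in fibroblast-like cells at 589 CPM. Against all other cells, this list had 3 genes 2-fold or more higher and 1 lower in macrophage-like cells, of 8 at 20 CPM or more on either side, beside the same 12.9% and 20.7% of all genes. Haem synthesis had 0 higher and 0 lower of 3, iron uptake and reduction 1 and 2 of 3, and iron export, chaperones and mitochondrial iron 0 and 1 of 7. Iron sensing and hepcidin had 0 higher and 3 lower of 7, the BACH1 and NRF2 axis 1 and 0 of 9, and ferroptosis 1 and 0 of 5.

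Neutrophil-like cells instead held the peak of several secreted iron binders and redox genes. Lcn2, which captures bacterial iron carriers, stood at 3467 CPM but ran from 1340 to 8036 CPM over the libraries, and Ltf, the iron-binding protein lactoferrin, at 1460 CPM ran from 233 to 5069 CPM. Hp, haptoglobin, was steadier at 1659 CPM (1458 to 1891). Slc7a11, the cystine importer, was at 2507 CPM (1181 to 3155), Gsr, glutathione reductase, at 1630 CPM and Fbxl5, an iron sensor that marks iron regulatory protein for destruction, at 713 CPM. Non-classical monocyte-like cells, where Hmox1 peaked, held the peak of Nfe2l2, the activator of the antioxidant programme, at 828 CPM, of Bach1, the repressor of Hmox1, at 209 CPM and of Gch1 at 220 CPM, Bach1 being named after its values were seen. All 3 had library ranges that overlap those of the next class, and for Nfe2l2 the range was 555 to 983 CPM in these monocytes, against 270 to 644 CPM in neutrophil-like cells.

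Elsewhere the other lists peaked in stromal and endothelial classes. Cp, the ferroxidase ceruloplasmin that works with ferroportin, stood at 1231 CPM in lymphatic endothelial-like cells, the class with the highest ferritin heavy to light ratio. Steap4, a metalloreductase, was at 1113 CPM in pericyte-like cells, Epas1, the oxygen-sensing factor HIF-2 alpha, at 1072 CPM in arterial endothelial-like cells, and Bmp6, the signal that raises hepcidin in the liver, at 380 CPM in endocardial-like cells. Epicardial or mesothelial-like cells, where Ncoa4 peaked, also held the peaks of Alad, an enzyme of haem synthesis, at 205 CPM, of Iscu, the scaffold for iron-sulphur clusters, at 234 CPM and of Acsl4, a lipid ligase of ferroptosis, at 163 CPM, the last with overlap with the next class. The remaining genes named by rule were Tmem14c at 203 CPM in monocyte-like cells, Urod at 67.0 CPM in pericyte-like cells, Pcbp2 at 304 CPM in dendritic-like cells and Gpx4 at 407 CPM in Schwann-like cells, and each of these overlapped the next class in its library range.

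Between macrophage subtypes, 4 of these genes differed by 4-fold or more, all in serous-cavity-type against resident macrophages. Cd163 stood at 3.63 CPM in serous-cavity-type and 673 CPM in resident macrophages (ratio 0.00539), and in library 4 at 0 and 569 CPM. Hp stood at 155 CPM on 213 UMIs, against 0.753 CPM on 1 UMI in resident cells (ratio 205, with an interval of 36.4 to 8141). Gsr was at 199 and 18.1 CPM (10.996-fold) and Frrs1, a ferric reductase, at 102 and 24.1 CPM (4.24-fold, and 65.9 against 63.2 CPM in library 4).

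Features that ran like each gene over the 18 classes are named as a description. Likeness was Pearson's r of log2(CPM + 20) over 11772 features, with cells of 4 libraries shared by all classes,, and carries no test. Slc11a1 was most like Pilra, Cd300ld and Tlr13 (r of 0.98, 0.97 and 0.97), and Hmox1 like Lair1, Tlr8 and Clec4n (0.94, 0.94 and 0.92). For Slc40a1 they were Ofcc1, Arsg and Gm34589 (0.92 each), for Ftl1 Emilin2, Tnfsf13b and Gng5 (0.94, 0.89 and 0.89), and for Fth1 Sirpa, Lsm10 and Gabarap (0.83, 0.83 and 0.82). Ncoa4 was most like Crym, Fgf9 and Wnt2b (0.92, 0.92 and 0.91), Tfrc like Psd4, Stk4 and Ikzf1 (0.93, 0.93 and 0.92) and Trf like Fuca1, B4galt6 and Basp1 (0.86, 0.83 and 0.81). Blvrb and Slc11a2 had weaker likenesses, led by Lgmn (0.84) and Bbc3 (0.80). Among the 10 genes themselves the closest pair was Hmox1 and Slc11a1 (0.92), and Hmox1 and Slc40a1 stood at 0.32.

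Within macrophage-like cells thinned to 1000 UMIs, Slc40a1 was seen in 11.8% of the 102 cells with an Hmox1 UMI and in 2.34% of the 1069 cells without one. By library the shares were 6.67% against 1.59%, 5.00% against 0.816%, 18.2% against 3.34% and 0% against 1.55%, but in libraries 1 and 2 the first share is 1 cell of 15 and 1 of 20, so the pooled difference rests mainly on library 3. For Tfrc the shares were 6.86% and 1.78%, and for Slc11a1 6.86% and 7.11%. These shares are descriptions of sparse counts and no order of cells is read from them.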

How the data were processed

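The authors deposited 1 joined table of raw UMI counts per gene and cell barcode, made with Cell Ranger 7.1.0 per the file headers and on mm10 per the submitters' processing notes. How the 4 libraries were joined is not stated in the labels. Per the labels' protocols, hearts were digested, cardiomyocytes strained out, red cells lysed, dead cells removed and live nucleated cells sorted before droplet capture (10x 3′ v3.1). No label ties a barcode suffix to a sample, so the table was treated as 1 sample, no test was run and stroke was not compared with control. No column of values lay outside the series.

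Barcodes with at least 500 UMIs, 250 genes and at most 15% mitochondrial UMIs were kept (821 failed). Scrublet, run per library, marked 1316 doublets; its automatic threshold of 0.613 marked 0% of library 3, to which 0.208, the median over the remaining libraries, was applied instead. Cells were clustered with scanpy 1.11.5 and leidenalg 0.10.2 (2000 variable genes, 30 components, 15 neighbours, resolution 1), with 220 features barred, among them the 10 genes, the other iron genes, haemoglobin, tdTomato, mitochondrial, ribosomal and sex-linked genes. Clusters were named where at least 3 markers of 1 of 24 lists stood 2-fold above the other cells, and naming limits were adjusted after the first clusters were seen, without reference to the 10 genes. Macrophage-like cells were clustered again (500 genes, 10 components, resolution 0.6).

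Levels are summed UMIs as CPM. Intervals are exact at 95%, and a count of 0 was taken to allow 3 UMIs. Comparisons used genes at 20 CPM or more on either side and a 2-fold threshold, and the share of all such genes past it is given as background. No sub-cluster was named recruited, so that comparison used cells assigned one by one. The alternatives were stricter filters, resolution 2, doublets kept, cells weighted equally, cells thinned to 1000 UMIs, edgeR 4.0.16 TMM factors, DESeq2 1.42.0 size factors, each library left out and thresholds of 1.5-fold and 3-fold. Only the 2-fold call and the ratio intervals were tested on simulated data, drawn as Poisson counts from summed levels. The draws held no spread between cells or libraries, and filtering, clustering and naming were not simulated. The total was 31955157 to 45834980 UMIs per library.

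The 10 genes, the 7 lists of other iron and haem genes and the markers were chosen with earlier results of these data known. In each list the 3 genes with the highest CPM in a class were named, with any that differed 4-fold or more between macrophage subtypes on at least 50 UMIs, and the 3 features most like each of the 10 genes were named by Pearson's r. Gene positions and hairpin sequences are from GENCODE vM21 (GRCm38).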

Additional observations from a re-analysis of the deposited data

How the results depend on the processing

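Of 17 alternatives, 9 to 13 gave a value for each gene ratio. Over these, 750 of 807 values of 69 gene ratios stayed within 1.5 times of the reported ratio. In all, 18 ratios lay on the other side of 1 under at least 1 alternative, and 7 of these had a counting interval that excluded 1. Some ratios are counted again among the 69, since neutrophil-like and macrophage-like cells are also the 2 highest classes of Slc40a1, Fth1 and Ftl1. The values of those 7 are given here. Scaling did most between neutrophil-like and macrophage-like cells, where TMM factors raise every log2 ratio by 0.58 and DESeq2 factors by 0.99. There the log2 ratio of Ftl1 was 0.011 with TMM and 0.42 with DESeq2, that of Tfrc was 0.17 with DESeq2, and 2 genes were higher with TMM, with thinned cells and at 1.5-fold, and 3 with DESeq2. Only 2 genes were lower with DESeq2 and without library 3. Read the other way, macrophage over neutrophil, Ftl1 was at -0.011 with TMM and -0.42 with DESeq2 on the log2 scale. The log2 ratio of Slc11a1 in non-classical monocyte-like over neutrophil-like cells was -0.33 with DESeq2. That of Trf in macrophage-like over epicardial or mesothelial-like cells was -0.0025 with cells weighted equally and -0.16 without the serous-cavity-type cells, a setting chosen after seeing the data.

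Between resident and MHC-II-high macrophages 1 gene was higher with doublets kept, where the log2 ratio of Ftl1 was -0.046, and 5 genes were higher at 1.5-fold. For serous-cavity-type over resident macrophages 1 gene was higher with doublets kept, thinned cells, TMM, DESeq2 and 1.5-fold, and the log2 ratio of Ftl1 was 0.14 with TMM and 0.22 with DESeq2. For lipid-associated over resident macrophages 1 gene was higher at resolution 2 and 4 were lower under stricter filters, and no such sub-cluster was named with doublets kept. Between resident and recruited macrophages 0 genes were higher at 3-fold, 1 was higher without library 3 and 1 was lower at 1.5-fold. Apart from the scaling shifts, the cause of these changes was not tested.

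With each library left out in turn, 7 to 9 genes were higher and 0 to 0 lower in macrophage-like cells than in all others, 1 to 1 higher and 2 to 5 lower in neutrophil-like than in macrophage-like cells, and 3 to 4 higher and 0 to 0 lower in resident than in MHC-II-high macrophages. The counts were 0 to 0 higher and 4 to 5 lower for serous-cavity-type, 0 to 0 and 2 to 2 for lipid-associated over resident macrophages, and 1 to 3 and 0 to 0 for resident over recruited macrophages. A group at 0 UMIs gave no ratio. No paired analysis was possible because no label ties the barcode suffixes of the joined table to the numbered samples. Depth limits the genes with few UMIs, of which Tfrc had 1076, Slc11a2 1400, Slc40a1 1452 and Slc11a1 1475 over all analysed cells.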

Other observations

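MHC-II-high macrophages were divided by the reporter and its driver gene. Cells with a UMI of tdTomato or Ccr2 (38) held Blvrb at 199.6 CPM and the 303 cells with neither held it at 334 CPM. Hmox1 stood at 268 CPM in the cells with such a UMI and 75.5 CPM in those with neither, but 1 cell held 35 of the 43 UMIs and the level without it was 52.0 CPM. Slc40a1 stood at 24.9 CPM and 30.2 CPM in the same order, but the first level rests on 4 UMIs. Of these 1 cell held 3, and the level without it was 6.50 CPM. Library 3 held 26 of the 38 cells with such a UMI. The cells with such a UMI held a median of 4275 UMIs and those with neither 3961 UMIs, and the part of depth in these values was not tested.

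The 261 macrophage-like cells led by Cd207 and Ccl4, which stayed unnamed, held Slc11a2 at 37.6 CPM, against 19.6 CPM in resident macrophages. By library the values were 45.2, 18.1, 42.2 and 35.5 CPM in these cells, against 16.2, 25.8, 16.4 and 37.9 CPM in resident macrophages, so libraries 2 and 4 had the reverse order. They held Hmox1 at 136 CPM and Slc40a1 at 46.7 CPM. For Slc40a1 1 cell held 26 of the 72 UMIs. Early response genes summed to 15640 CPM in them and 4205 CPM in resident macrophages. An unnamed cluster of 53 cells outside the macrophage class, led by Retnla, Spp1 and Ccr2, had 0 UMIs of Slc40a1, where 3 UMIs would give 5.75 CPM. It scored best as macrophage, with 8 macrophage markers at 2-fold, but stayed unnamed because markers of another class led. Spp1 stood at 1702 CPM in it, against 236 CPM in the lipid-associated sub-cluster, and its cells were not part of the lipid-associated comparison.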
